A study of Mus musculus with 4 samples.

Results

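The TNF superfamily ligands and receptors described here are 10 genes, Tnf, Tnfsf10, Tnfsf11, Tnfsf13b, Tnfrsf1a, Tnfrsf1b, Tnfrsf11a, Tnfrsf11b, Tnfrsf12a and Fas. They were chosen by name, as every probe set that the platform annotation gives to exactly 1 gene with one of these symbols. This gave 19 of the 45101 probe sets and 10 of 18193 genes, with all 10 genes read by at least 1 probe set. RNA had been hybridized to 4 Affymetrix arrays, 2 for each of 2 diets. All of it came from freshly sorted mammary basal cells of mice of mixed background (B66SJL/HEV/J) carrying MMTV-Wnt1, a transgene in which a mammary tumour virus promoter drives the Wnt1 ligand. The control group ate a casein (CAS) diet and the other group a soy protein isolate (SPI) diet, and both groups carried the transgene. The sorted population is enriched for mammary stem cells and, per the labels, also holds myoepithelial cells and their progenitors. The labels give no age, nor whether each array stands for its own animal or pool of animals. The p-values thus reflect array-to-array spread that could be purely technical.

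Ligands of the TNF superfamily are mostly made as membrane proteins that act as trimers, on the cell surface or after being cut off. They bind receptors that recruit TRAF adaptors and switch on NF-kappaB, and a subset of receptors carries a death domain that can start apoptosis. In the mammary gland the best known members are Tnfsf11, the RANK ligand that luminal cells make in response to progesterone, and its receptor Tnfrsf11a, through which the epithelium expands and forms alveoli. Tnf is an early cytokine of inflammation made by macrophages and many other cells.

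The deposited numbers are log2 expression values that had been centred so that the median of the 4 arrays is 0 for each probe set. A value of 0.5 therefore means 0.5 log2 units above that probe set's own median, and levels cannot be compared between genes. The last digits keep the rounding step of the uncentred numbers, from which a probe set was given a coarse class for its log2 level (8 to 16, 4 to 8, 2 to 4, or lower), with a 12.5% chance of being placed 1 class too high. That chance is larger where deposited values are exactly 0, as on the Tnfsf13b probe set 1445251_at. Of the 19 probe sets 8 were in the class 8 to 16, 5 in 4 to 8 and 6 in 2 to 4. Of 44 olfactory receptor probe sets, whose genes serve the sense of smell, 12 were still in the classes from 4 upwards, so a class does not establish expression. The basal markers Krt5 and Krt14 were in the class 8 to 16, as were the luminal markers Krt8, Krt18 and Krt19. Probe sets of Krt5 and Krt14 did not pass the test between the diets. Of 10 basal marker genes 1 passed, Oxtr, as higher in SPI, where 0.456% of all genes did.

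Tnf was the 1 gene of the 10 with a probe set that passed the test between the diets, and it was lower on soy protein. Its probe set was lower on the SPI arrays by a factor of 2.15 (limma adjusted p = 0.0454, 95% interval 1.65 to 2.80, 2 arrays in each diet). With the replicate number as a block Tnf did not pass (limma adjusted p = 0.0714). None of the other 18 probe sets passed, where 1.5% of all probe sets did. Their differences lay between -0.35 and 0.50 on the log2 scale. On all 3 probe sets of Tnfsf10, the death ligand TRAIL, both SPI arrays lay above both CAS arrays. The probe set of the death receptor Fas had the same order. None of these passed, and 27.9% of all probe sets had SPI above CAS without overlap. On the Tnfrsf11a probe set 1419214_at, for the receptor RANK, both SPI arrays lay below both CAS arrays. It did not pass either, and 20.5% of all probe sets had that order. The other probe set of the gene, 1430259_at, had overlapping diets and a difference of 0.058.

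The 250 bases before the start of Tnf and of Tnfsf10 are shown because these ligands had the largest differences of the family, in opposite directions. They come from RefSeq promoters of GRCm38.p6, which held 9 of the 10 genes, and are written 5′ to 3′ on the strand of the gene. Tnf is on the minus strand at chr17:35202008-35202257 and Tnfsf10 on the plus strand at chr3:27316827-27317076. Capitals mark every match, on either strand, to the kappaB pattern GGGNNNNNCC, the interferon-stimulated response element TTTCNNTTTC, the gamma-activated site TTCNNNGAA and the TATA box TATAAA.
Tnf: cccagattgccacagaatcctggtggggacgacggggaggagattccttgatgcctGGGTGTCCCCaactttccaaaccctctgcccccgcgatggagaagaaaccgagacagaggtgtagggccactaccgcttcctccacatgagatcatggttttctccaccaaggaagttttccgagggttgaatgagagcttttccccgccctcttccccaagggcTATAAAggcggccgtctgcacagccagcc
Tnfsf10: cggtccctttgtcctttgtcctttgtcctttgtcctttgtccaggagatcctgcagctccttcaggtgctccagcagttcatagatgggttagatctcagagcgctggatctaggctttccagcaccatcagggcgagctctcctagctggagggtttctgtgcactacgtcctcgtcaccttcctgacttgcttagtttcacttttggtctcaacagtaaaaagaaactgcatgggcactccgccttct

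In the Tnf window the kappaB letters GGGTGTCCCC lay 194 to 185 bases before the start and read as a match on both strands, and TATAAA lay 29 to 24 bases before it. The Tnfsf10 window held no match to any of the 4 patterns. The kappaB pattern matched promoters of 7 members and 45.8% of all 32851 promoters of the same length. The other patterns were rarer. The interferon pattern matched the promoters of Tnfrsf1b and Tnfsf13b (2.98% of all promoters), the gamma-activated site those of Tnfrsf1b, Tnfrsf1a and Fas (7.02%), and the TATA box those of Tnf and Tnfsf11 (12.4%). The TATA match of Tnfsf11 was on the strand opposite to the gene, 32 to 27 bases before the start. In Fas the kappaB letters GGGTTTCCCC and in Tnfrsf11a the letters GGGCACCCCC also read as matches on both strands. A match is a string of letters and not a measured site.

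**Figure D1:**
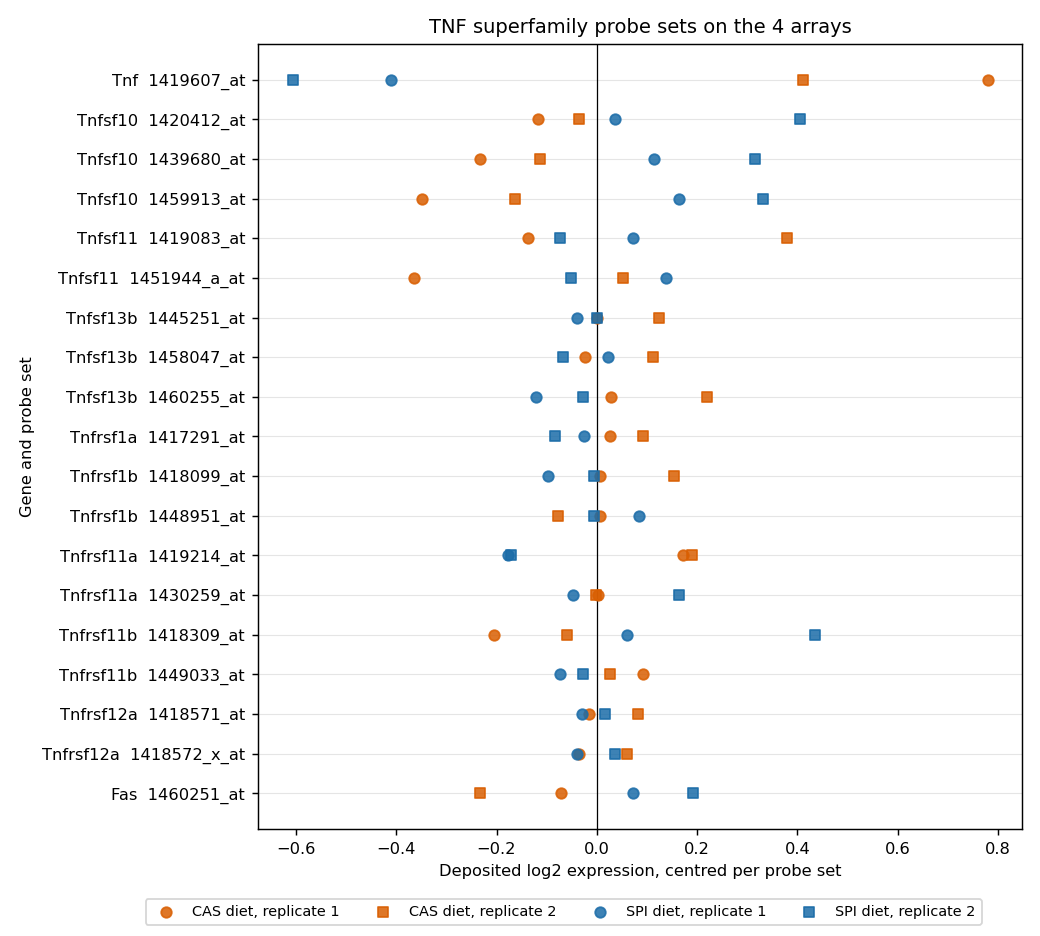
Deposited log2 expression, centred per probe set, for the 19 probe sets of the family on the 2 CAS arrays (orange) and the 2 SPI arrays (blue); circles are replicate 1 and squares replicate 2. Tnf has the widest gap between the diets, with CAS at 0.78 and 0.41 and SPI at -0.41 and -0.61.

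Among the ligands, Tnf stood at 0.78 and 0.41 in CAS and at -0.41 and -0.61 in SPI. Both SPI arrays were below both CAS arrays, by more than the CAS arrays differed from each other (0.37) or the SPI arrays did (0.20). The log2 difference was -1.10 with an SE of 0.15, and limma gave an adjusted p of 0.0454. Over all 45037 non-control probe sets 1.5% passed this test in either direction, 1.25% lower and 0.249% higher in SPI, while 1 of the 19 passed here. Its probe set was in the level class 8 to 16. With the replicate number as a block the adjusted p was 0.0714, and with any 1 of the 4 arrays left out it lay between 0.249 and 0.366, at differences between -0.92 and -1.29. An exact permutation test of 2 arrays against 2 cannot give a two-sided p under 0.333.

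Tnfsf10 encodes TRAIL, which can trigger apoptosis through death receptors and is also induced by interferons. It was read by 3 probe sets. The probe set 1459913_at was at -0.35 and -0.16 in CAS and at 0.16 and 0.33 in SPI, a difference of 0.50 (95% interval 0.23 to 0.77, limma adjusted p = 0.116). The probe set 1439680_at, in the class 8 to 16, gave -0.23 and -0.11 in CAS and 0.11 and 0.32 in SPI, a difference of 0.39 (0.13 to 0.65, adjusted p = 0.165). For 1420412_at the CAS values were -0.12 and -0.036 and the SPI values 0.036 and 0.41, a difference of 0.30 (-0.057 to 0.65, adjusted p = 0.348). In each of the 3 the SPI arrays lay above the CAS arrays with no overlap, an arrangement in which SPI was higher in 27.9% of all probe sets. These probe sets read the same gene on the same arrays and are not independent. With arrays centred on the hybridization controls, which moved the median difference of all probe sets from 0.023 to 0.19, 1459913_at and 1439680_at passed. That centring passed 3022 of the 45037 probe sets (6.71%), 2312 of them higher in SPI.

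Tnfsf11, the RANK ligand, was read by a pair of probe sets, both in the class 2 to 4. On 1419083_at the CAS arrays were at -0.14 and 0.38 and the SPI arrays at 0.073 and -0.073. On 1451944_a_at they were at -0.36 and 0.052 in CAS and at 0.14 and -0.052 in SPI. The diets overlapped on both, and the CAS arrays alone differed by 0.52 and 0.42. The differences of -0.12 (-0.59 to 0.34) and 0.20 (-0.21 to 0.61) had opposite signs, with adjusted p of 0.784 and 0.575 by limma. These intervals still hold a change of 1.5-fold in one direction each.

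Tnfsf13b, the B cell survival factor BAFF, was read by 3 probe sets in the class 2 to 4. Their differences were -0.20, -0.082 and -0.067, with limma adjusted p between 0.370 and 0.751. Over all probe sets 20.5% had SPI below CAS without overlap. Here that held only on 1460255_at, with CAS at 0.028 and 0.22 and SPI at -0.12 and -0.028. On that probe set the CAS arrays differed from each other by 0.19, about as much as the diets did. The direction of 1445251_at and 1458047_at turned with arrays centred on the hybridization controls.

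**Figure D2:**
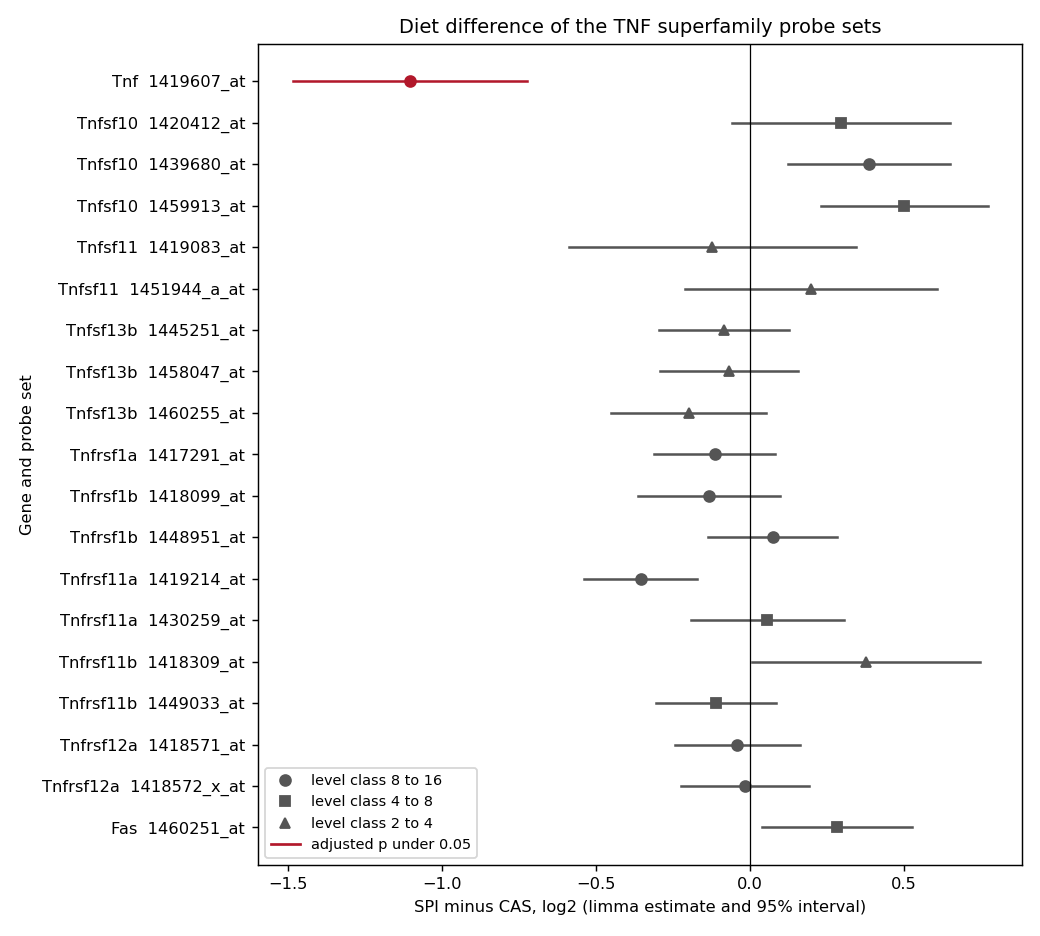
SPI minus CAS on the log2 scale for the 19 probe sets, with the limma estimate as a point and its 95% interval as a line; the point's shape gives the level class and red marks an adjusted p under 0.05. Tnf at -1.10 is the single probe set marked red.

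Both receptors of Tnf differed less than Tnf itself. Tnfrsf1a, the widely expressed receptor with a death domain, was at 0.026 and 0.092 in CAS and at -0.026 and -0.084 in SPI. That is a difference of -0.11 (95% interval -0.31 to 0.083, limma adjusted p = 0.502), in the class 8 to 16. Tnfrsf1b, which has no death domain and is prominent on leukocytes, was read by a pair of probe sets in the class 8 to 16 that pointed in opposite directions. On 1418099_at the CAS arrays were at 0.0059 and 0.15 and the SPI arrays at -0.096 and -0.0059, a difference of -0.13 (adjusted p = 0.509). On 1448951_at they were at 0.0061 and -0.077 in CAS and 0.084 and -0.0061 in SPI, a difference of 0.075 (adjusted p = 0.693). The intervals of these 3 probe sets reached at most 1.28-fold, below the 2.15-fold measured for Tnf. They rest on the spread between 2 arrays in each diet, which could be purely technical.

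The receptors of the RANK system were split between their probe sets. Tnfrsf11a on 1419214_at was at 0.17 and 0.19 in CAS and at -0.18 and -0.17 in SPI, in the class 8 to 16. Arrays of a diet differed by 0.018 and 0.0050, and the diets by -0.35 (95% interval -0.54 to -0.17, limma adjusted p = 0.108). The arrays of a diet were thus closer to each other than on any other of the 19 probe sets when both diets are counted, but limma pulls so small a spread towards that of all probe sets. When the spread was instead shared only within a level class, this probe set passed (limma adjusted p = 0.0471). The other probe set of the gene, 1430259_at in the class 4 to 8, was at 0.0021 and -0.0021 in CAS and at -0.048 and 0.16 in SPI, a difference of 0.058 (-0.19 to 0.31). The difference between these probe sets was not tested.

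Tnfrsf11b encodes osteoprotegerin, a secreted decoy receptor that binds the RANK ligand and TRAIL. On 1418309_at, in the class 2 to 4, it was at -0.21 and -0.059 in CAS and at 0.059 and 0.43 in SPI. On 1449033_at, in the class 4 to 8, it was at 0.092 and 0.027 in CAS and at -0.074 and -0.027 in SPI. Neither probe set had overlapping diets, as was the case for 48.4% of all probe sets, yet one was higher and the other lower in SPI. The differences were 0.38 (95% interval 0.0091 to 0.75) and -0.11 (-0.30 to 0.085), with limma adjusted p of 0.273 and 0.515.

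Fas, the receptor of the Fas ligand and a starter of apoptosis, was read by 1 probe set in the class 4 to 8. It was at -0.071 and -0.23 in CAS and at 0.071 and 0.19 in SPI, which put both SPI arrays above both CAS arrays. That order was found in 27.9% of all probe sets. The difference was 0.28 (95% interval 0.039 to 0.53, limma adjusted p = 0.230). Tnfrsf12a, the receptor Fn14 for the ligand TWEAK, differed least. Its probe sets, both in the class 8 to 16, differed by -0.040 (-0.24 to 0.16) and -0.014 (-0.22 to 0.19) with overlapping diets. The latter probe set, 1418572_x_at, can bind related transcripts, and both turned direction with arrays centred on the hybridization controls.

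Over the 19 probe sets, 8 differences were above 0 and 11 below. Their median was -0.040, against 0.023 over all probe sets tested, and the median size without regard to sign was 0.13 against 0.11. An unadjusted limma p under 0.05 was reached by 6 of the 19, with 4 higher and 2 lower in SPI, where 17.8% of all probe sets reached it. Both SPI arrays lay below both CAS arrays on 6 and above them on 5, and 48.4% of all probe sets had no overlap in either direction.

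Other members of the family gave no call. Probe sets of a single gene were found for 10 of 14 further ligands and 21 of 22 further receptors. Of the 10 ligand genes measured by 16 probe sets and the 21 receptor genes measured by 34, 0 passed over all probe sets by limma, where 2.65% of all genes had at least 1 passing probe set, 2.2% lower and 0.456% higher. At an unadjusted p under 0.05 were 1 of the 16 and 6 of the 34 probe sets. The ligand with the smallest p was Tnfsf9, which costimulates T cells, at -0.31 (limma adjusted p = 0.169). It was followed by Ltb, a lymphotoxin chain, at -0.21 and Tnfsf14, which binds Ltbr, at 0.20 on 1 probe set and 0.054 on the other. Among the receptors, Tnfrsf19 was at 0.47 (limma adjusted p = 0.115) on 1 probe set but at -0.31 and -0.14 on the others. Edar, the ectodysplasin receptor of skin appendages and glands, was at 0.31 on 1 probe set and at -0.026 on the other, and Tnfrsf25, a death domain receptor, was at 0.49. With arrays centred on the hybridization controls Edar, Tnfrsf19 and Tnfrsf25 passed as higher in SPI, a setting in which 2312 of the 45037 probe sets did, against 112 without it.

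Of 33 genes of receptor signalling listed, 28 were measured, by 74 probe sets. Of these 28, Tnfaip3 fell and 27 did not pass, a share near the 2.65% of all genes with a passing probe set. Tnfaip3 encodes A20, an enzyme that edits ubiquitin chains and shuts off NF-kappaB after TNF. Its probe set 1433699_at was at 0.36 and 0.34 in CAS and at -0.34 and -0.38 in SPI, 1.64-fold lower (95% interval 1.44 to 1.86, limma adjusted p = 0.0259). The other probe set of the gene was at -0.36 and did not pass (adjusted p = 0.153). Ikbkb, a kinase that frees NF-kappaB, was at -0.42 on the probe set with its smallest p (adjusted p = 0.0837), with the other 4 between -0.19 and 0.095. Traf5, an adaptor of several of these receptors, was at 0.44 (adjusted p = 0.138) and 0.14. The median of the 74 probe sets was -0.045.

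**Figure D3:**
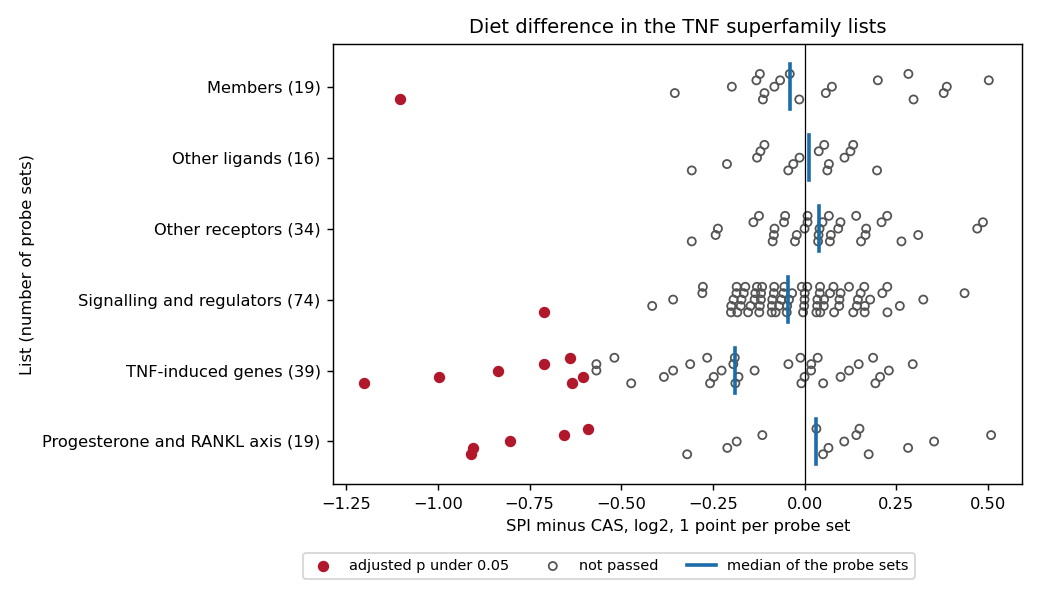
SPI minus CAS on the log2 scale for every probe set of the family and of 5 lists of related genes, with red points for an adjusted p under 0.05, open points for probe sets that did not pass and a blue line at the median of each list. Red points lie below 0 in every list that has any, and the TNF-induced genes have the lowest median at -0.19. The lists were chosen with earlier results of these data known.

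Of 20 genes that TNF is known to induce, measured by 39 probe sets, 6 fell in SPI and 0 rose. Over all genes 2.2% were lower and 0.456% higher. The list was chosen with earlier results of these data known, so this comparison is not an independent test. Il6, an inflammatory cytokine, was at 0.49 and 0.71 in CAS and at -0.49 and -0.71 in SPI, 2.30-fold lower (95% interval 1.86 to 2.84, limma adjusted p = 0.0240). Tnfaip6, a secreted hyaluronan-binding protein, was at 0.39 and 0.40 in CAS and at -0.49 and -0.39 in SPI, 1.78-fold lower (1.55 to 2.05, adjusted p = 0.0210). In both genes the diets were separated by more than the arrays of either diet. Nfkbia, the inhibitor that holds NF-kappaB in the cytoplasm, fell by 0.64 on 1 of 5 probe sets (limma adjusted p = 0.0408), with the other 4 between -0.57 and -0.27. Vcam1, an adhesion molecule for leukocytes, fell by 0.60 and 0.64 on 2 of 3 probe sets and was at -0.52 on the other (adjusted p = 0.0504). Tnfaip2 fell by 0.9967 on 1 probe set that can bind related transcripts (limma adjusted p = 0.0129), while its others were at -0.19 and 0.19. Tnfaip3, described above, was the other gene of the 6.

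The median of these 39 probe sets was -0.19, against 0.023 over all probe sets. With arrays centred on the hybridization controls it was -0.019, against 0.19 over all probe sets, and these 6 genes still passed as lower. With 1 value per gene taken from its highest level class 4 passed, without Tnfaip2 and Tnfaip3. With the replicate block, or with any 1 array left out, 0 of the 20 passed. On the same arrays the 17 probe sets of the fibroblast markers had a median difference of -1.31, and their part in these calls was not tested.

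In the progesterone and RANK ligand axis of the mammary gland, 8 of 11 listed genes were measured. Ccnd1 and Esr1 fell and the other 6 genes did not pass, where 2.2% of all genes were lower and 0.456% higher. This list too was chosen with earlier results of these data known. Ccnd1, the cell cycle gene cyclin D1 that acts downstream of RANK in alveolar growth, fell on all 3 of its probe sets. On 1448698_at it was at 0.52 and 0.38 in CAS and at -0.38 and -0.55 in SPI, 1.88-fold lower (95% interval 1.58 to 2.24, limma adjusted p = 0.0275). The others fell by 0.90 and 0.80. Esr1, the estrogen receptor of luminal cells, fell by 0.59 and 0.66 on 2 probe sets (limma adjusted p = 0.0393 and 0.0477) and was at 0.065 on the other, in the class 2 to 4. Id2, a transcriptional inhibitor, was at 0.51, 0.15 and 0.050 and did not pass (adjusted p = 0.130 for the first). Pgr, the progesterone receptor, was at 0.17, 0.28 and 0.35 and Elf5, an alveolar transcription factor, at -0.21 and -0.19, all without passing; both were named after their values were seen. Id2 and Pgr passed as higher in SPI with arrays centred on the hybridization controls. Esr1, Pgr and Elf5 also stand in the list of luminal markers, of which Krt18, Krt19, Ehf and Kit passed as lower beside Esr1.

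Markers of other cell types differed between the diets to different degrees. Over all genes 2.2% passed as lower and 0.456% as higher. Of 8 macrophage marker genes 0 passed, and their 13 probe sets had medians of -0.35 and -0.073 in CAS and of 0.090 and 0.13 in SPI, the opposite direction to Tnf. Of 8 fibroblast marker genes 6 passed as lower, with medians of 0.61 and 0.63 in CAS and -0.61 and -0.63 in SPI. Dcn and Fbln1 did not pass. Dcn was at 0.0080 and -0.12, and Fbln1 at -0.21, -0.12 and 0.057. Mast cell and granulocyte markers passed as lower in 4 of 6 genes, with medians of 0.55 and 0.44 in CAS and -0.46 and -0.73 in SPI. The passing genes were the mast cell markers Cpa3, Cma1, Mcpt4 and Kit. The granulocyte markers S100a8, at -0.49, and S100a9, at -0.12 with overlapping diets, did not pass. Endothelial and pericyte markers passed as lower in 3 of 6 genes, with a median difference of -0.86, and luminal markers in 5 of 9, at -0.37. Kit stands in both the luminal and the mast cell list and is counted in each. Of the T and NK cell markers 1 of 7 genes passed as lower, Thy1, which fibroblasts also express, at -1.67, while the median difference of the list was 0.077. Of the B and plasma cell markers 1 of 4 genes passed as lower, Jchain, at a median of -0.11. Of the adipocyte markers Lpl was the 1 of 4 that passed, also as lower, at a median of -0.43, with Adipoq at 0.38. Basal markers passed as higher in 1 of 10 genes, at a median difference of 0.082. Fewer cells of a type and less RNA per cell cannot be told apart in such samples, and the part of these cells in the Tnf value was not tested.

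**Figure D4:**
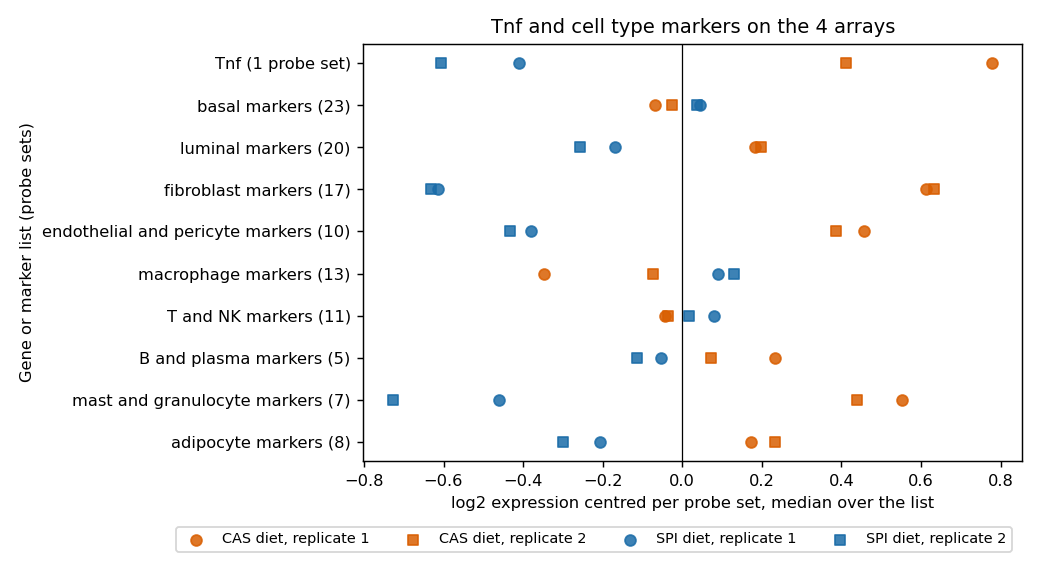
Centred log2 values of Tnf and medians of 9 lists of cell type markers on the 2 CAS arrays (orange) and the 2 SPI arrays (blue); circles are replicate 1 and squares replicate 2. Tnf and the fibroblast, endothelial, mast cell, luminal, adipocyte and B cell markers lie higher in CAS, and the macrophage, basal and T and NK cell markers lie higher in SPI.

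The call for Tnf and the misses for Tnfsf10 and Tnfrsf11a were compared under other processing. Tnf has 1 probe set, so several alternatives left its values unchanged. These were 1 value per gene, the filters on probe sets and the spread shared within a level class. They changed only the probe sets tested or the shared spread, and are not separate checks of Tnf. Tnf passed in 7 of 13 alternatives, with an adjusted p between 0.0168 and 0.366 and a difference between -1.29 and -0.92 over all 13. The alternatives in which it did not pass were the block, each array left out, and the ordinary t statistic, which shares no spread between probe sets.

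**Figure D5:**
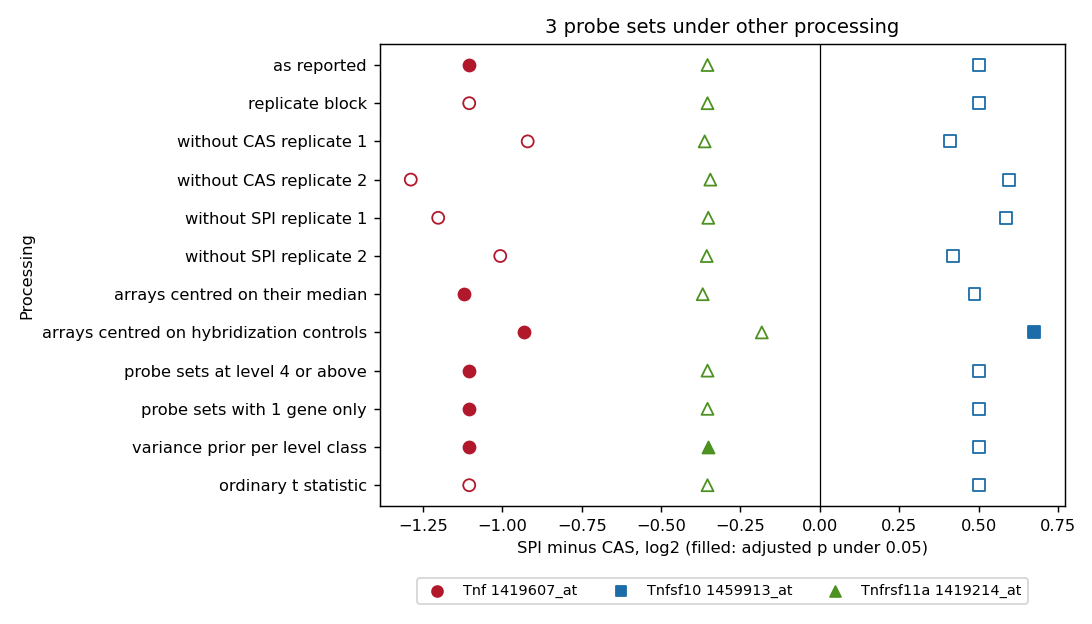
SPI minus CAS on the log2 scale for Tnf, for the Tnfsf10 probe set and for the Tnfrsf11a probe set with the largest differences of their genes, as reported and under 11 other ways of processing; filled points had an adjusted p under 0.05. Tnf stays below 0 and Tnfsf10 above 0 throughout, while few points of Tnfsf10 and Tnfrsf11a are filled.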

How the data were processed

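Per the submitters' processing notes the arrays were handled with GCOS and RMA, without a stated version. RMA works in base 2, so the authors' deposited values were read as log2 expression. Every row median was at most 5e-07 from 0, which shows a centring of each probe set that no label records. Of 45101 probe sets 64 are controls and 45037 were tested. The annotation gave exactly 1 gene to 34945 of them, several to 932 and none to 9160. Gene IDs of 34741 matched the GRCm38.p6 table, and the rest of the 34945 kept their annotation symbol. Together they gave 18193 genes.

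Each probe set was fitted in R 4.3.3 with limma 3.58.1 (eBayes after lmFit, SPI minus CAS, two-sided, without a block, 2 residual and 3.11 prior degrees of freedom), with Benjamini-Hochberg adjustment over all 45037 probe sets and a threshold of 0.05. No filter on low values was used. The fit was tested on simulated data. A gene of a list counts when at least 1 of its probe sets passes. A trend over intensity needs levels, so the spread was shared within a level class instead. The members and lists were chosen with earlier results of these data known. Named genes were all members and, of each list, the passing genes (at most 6) and the 3 with the smallest p. Alternatives are in the closing section. The number of arrays limits the precision. The labels do not say whether a replicate number pairs a CAS with an SPI sample. The correlation of deviations from the diet means was -0.099, which with 2 arrays in each diet cannot settle this.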

Additional observations from a re-analysis of the deposited data

How the results depend on the processing

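The count of passing member probe sets was 1. It was 0 with the replicate block, 0 with each array left out and 0 by the ordinary t statistic, 2 with the spread shared within a level class (Tnf and Tnfrsf11a) and 3 after centring on the hybridization controls (Tnf and 2 probe sets of Tnfsf10). Over all probe sets 676 passed, 112 higher and 564 lower. The replicate block gave 79, each array left out 0 (with 4882 to 6513 at an unadjusted limma p under 0.05), the ordinary t statistic 1 (6084), a filter at level 4 gave 1153, the spread within a level class 1172, an adjusted p under 0.10 gave 1579 and an unadjusted p under 0.05 with a 1.5-fold difference 1136. Centring on the hybridization controls gave 3022, 2312 higher and 710 lower. Of the 84 listed genes measured 8 passed, where 2.65% of all genes did. With that centring 15 passed, a setting in which 6.71% of all probe sets did. With the replicate block or the ordinary t statistic 0 passed. The lists were chosen with earlier results of these data known.

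Directions turned only for probe sets that had not passed. After hybridization control centring the differences were 0.049 for Tnfsf11 1419083_at, 0.089 and 0.10 for Tnfsf13b 1445251_at and 1458047_at, 0.057 for Tnfrsf1a, 0.040 for Tnfrsf1b 1418099_at, 0.062 for Tnfrsf11b 1449033_at and 0.13 and 0.16 for Tnfrsf12a. With 1 array left out, ranges crossed 0 for Tnfsf11 (-0.38 to 0.14 and -0.0083 to 0.41), Tnfsf13b 1458047_at (-0.13 to 0.0013), Tnfrsf11a 1430259_at (-0.048 to 0.16) and Tnfrsf12a (-0.090 to 0.0088 and -0.063 to 0.034). A lone array is there assumed to vary like the other diet. The labels do not say what replicates of the same number share, so the block is given as an alternative.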
